A study of Mus musculus with 3 samples.

Results

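The 10 immediate early genes Fos, Fosb, Jun, Junb, Egr1, Nr4a1, Atf3, Ier2, Btg2 and Cyr61 were followed across the nucleus types of mouse interscapular brown adipose tissue (BAT). They were chosen by their levels in an earlier analysis of the same tables, in which several of them led a cluster of endothelial nuclei, so their levels, detection and co-detection are given as a description and not as a test. All 10 were found among the 21214 genes shared by the 3 tables. Single-nucleus RNA sequencing gave 1 library each of untreated, sham-operated and denervated BAT from adult wild-type C57Bl6 mice, all male per the study's methods. The untreated and denervated libraries were made from 20 mice each (C57BL/6J in the study's methods) at 8 weeks of age, the latter on day 3 after the nerves to the left BAT had been cut. For the denervated mice the study's supplement also lists tamoxifen, which is not named for the untreated library. Neither the number of mice behind the sham library nor the day after the sham operation is given in the sources used here. The age of these mice is covered only by the general statement of 8 weeks in the study's methods on nuclei isolation. All nuclei came from the floating layer left after enzymatic digestion of the tissue, which holds brown adipocytes (BAs) with pieces of vessels, and were sorted on a DNA dye. With 1 library per condition, pooled mice have no replicate spread, no test was made, and condition cannot be told apart from library. Levels are given in CPM, the counts per 1000000 UMIs of their class or cluster. The ranges in parentheses after a level are exact 95% Poisson intervals, which cover counting error only.

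Immediate early genes are transcribed within minutes of a stimulus from factors already present in the cell, without prior protein synthesis. Growth factors, shear stress, β-adrenergic signals and tissue dissociation all induce them. Most encode transcription factors that switch on later genes, and their transcripts are short-lived, so nuclear RNA reports recent transcription. Per the study's methods the tissue was digested warm and with shaking before the nuclei were isolated. Transcription during digestion therefore cannot be told apart here from transcription in the animal, for any type or cluster. Fos, Fosb, Jun and Junb encode subunits of the AP-1 dimer. Egr1 encodes a zinc finger factor, Nr4a1 an orphan nuclear receptor and Atf3 a stress-induced factor of the ATF/CREB family. Ier2 encodes a small nuclear protein, Btg2 an anti-proliferative cofactor of mRNA deadenylation, and Cyr61, now named Ccn1, a secreted matrix protein known as a target of YAP.

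The sequence just upstream of the start is one place where such stimuli act on these genes. RefSeq promoter windows on GRCm38.p6 were matched for 8 members, all except Ier2 and Egr1. In the 250 bases before the start, TGACG, the core of the site bound by CREB and ATF proteins, was found on either strand in 7 of these 8 windows (Fos, Fosb, Junb, Nr4a1, Atf3, Btg2 and Cyr61) and in 17.8% of 32851 RefSeq windows of the same length. The windows of 5 members are shown for their last 180 bases, none of which lies in an annotated exon, read 5′ to 3′ on the strand of the gene, with TGACG or its reverse complement CGTCA in capitals. The first 4 differ in the number and strand of these letters, and Jun is shown as the window that lacks them.
Fos (chr12:85473710-85473889, + strand): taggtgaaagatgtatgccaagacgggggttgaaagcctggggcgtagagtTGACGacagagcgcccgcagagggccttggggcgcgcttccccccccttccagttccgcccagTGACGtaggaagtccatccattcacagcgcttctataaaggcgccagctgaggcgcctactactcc
Junb (chr8:84978749-84978928, - strand): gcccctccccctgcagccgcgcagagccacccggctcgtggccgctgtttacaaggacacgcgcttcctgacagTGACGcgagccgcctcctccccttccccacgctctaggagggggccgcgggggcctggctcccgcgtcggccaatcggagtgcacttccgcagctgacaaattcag
Cyr61 (chr3:145649986-145650165, - strand): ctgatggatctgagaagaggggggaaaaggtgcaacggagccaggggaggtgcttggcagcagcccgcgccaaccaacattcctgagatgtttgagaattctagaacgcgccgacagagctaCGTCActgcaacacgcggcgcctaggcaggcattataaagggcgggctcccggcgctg
Btg2 (chr1:134079156-134079335, - strand): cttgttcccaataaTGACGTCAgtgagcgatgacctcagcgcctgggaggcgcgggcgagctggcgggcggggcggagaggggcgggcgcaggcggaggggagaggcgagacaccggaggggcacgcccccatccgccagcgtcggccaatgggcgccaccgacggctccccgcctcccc
Jun (chr4:95052223-95052402, - strand): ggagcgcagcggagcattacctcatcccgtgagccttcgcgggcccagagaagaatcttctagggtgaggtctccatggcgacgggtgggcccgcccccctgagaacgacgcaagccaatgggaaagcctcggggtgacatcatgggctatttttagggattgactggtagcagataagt

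The Fos window holds TGACG at 2 places, beginning 129 and 66 bases before the start, and TATAAA beginning 33 bases before it. In Btg2 the capitals form the full palindrome TGACGTCA, which contains TGACG on both strands, begins 166 bases before the start and occurs in 1.55% of all windows. Cyr61 has its single match on the opposite strand, beginning 58 bases before the start, and TATAAA at 25 bases. TATAAA was in 2 of the 8 windows, against 12.4% of all windows, and CCAAT in 3 (Jun, Junb and Btg2), against 33.8%. GAANNTTC, a core of the heat shock element, was in the Jun window only, beginning 128 bases before the start, against 6.69% of all windows. No member window held the AP-1 site TGACTCA, present in 4.46% of windows, or the CArG box of serum response factor, present in 1.47%. Both are rare in all windows, sites further upstream were not searched, and Ier2 and Egr1 had no window. Their absence from these 8 windows is thus no result about the members. A match describes letters and not an occupied site. The Jun window overlaps the annotated antisense gene Junos.

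The libraries were of uneven depth, with a median of 859, 781 and 428 UMIs per barcode in the untreated, sham and denervated tables and 6.71%, 12.9% and 2.95% of UMIs from mitochondrial genes. After filters, 10869, 12312 and 9731 nuclei were used, and 251 to 278 cell barcodes were shared between any pair of libraries. Nuclei were clustered within each library without the members and other listed immediate early genes, and clusters were named from marker lists. The untreated library gave 4199 brown adipocyte-like (BA-like), 5369 endothelial-like (EC-like), 589 pericyte-like (PC-like), 115 white adipocyte-like (WA-like), 105 immune-like and 55 vascular smooth muscle-like nuclei. BA-like nuclei had 9837 CPM of the brown adipocyte markers and 393 CPM of the endothelial markers, and EC-like nuclei had 1334 and 15960 CPM. The sham library gave 3869 BA-like and 5614 EC-like nuclei, and the denervated library 5371 and 2176. The sham EC-like class includes a cluster of 155 nuclei with 5.09% of the member UMIs of that class, 6621 CPM of the endothelial and 2611 CPM of the brown adipocyte markers, whose leading genes Gipr, Meg3, Ppfia2, Prkg1 and Kcnq5 also led an untreated PC-like cluster. The share of UMIs ascribed to ambient RNA was estimated at 7.64% to 20.03% over these 6 classes, and no class is known to lack the 10 genes, so a background share cannot be read from one. The estimate set the markers of other types against the profile of all barcodes of a library, nuclei included, and not against empty barcodes. Mixed or misnamed nuclei thus enter it.

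The members together took 904 CPM in untreated BA-like nuclei (883 to 925) and 2601 CPM in EC-like nuclei (2550 to 2653). The AP-1 subunits differed among themselves in this respect. Fos had 19.1 CPM in BA-like nuclei (16.2 to 22.5) and 171 CPM in EC-like nuclei (158 to 185). Fosb had 13.4 CPM (10.9 to 16.3) and 75.5 CPM (67.0 to 84.7), and Junb 46.2 CPM (41.5 to 51.3) and 177 CPM (164 to 191). Their intervals in the 2 classes lay far apart. Jun had 410 CPM in BA-like nuclei (396 to 424) and 481 CPM in EC-like nuclei (459 to 503), a difference of 1.17-fold. Jun thus made up 45.3% of the member UMIs of BA-like nuclei but 18.5% of those of EC-like nuclei.

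Egr1 (GRCm38 chromosome 18, 34859823 to 34864984) had 67.3 CPM in untreated BA-like nuclei (61.6 to 73.3) and 725 CPM in EC-like nuclei (698 to 752), and gave 27.9% of the member UMIs of the latter. Nr4a1 (chromosome 15, 101254269 to 101274795) had 58.7 CPM (53.4 to 64.4) and 308 CPM (290 to 326). Among these transcription factors, Atf3 (chromosome 1, 191170296 to 191218039) was the exception in the class sums, with 30.1 CPM (26.3 to 34.2) and 37.2 CPM (31.4 to 43.9), and these intervals overlapped. Its BA-like level was uneven, at 6.39 CPM in the largest BA-like cluster of 3455 nuclei and 204 CPM in another of 724 nuclei. Ier2 (chromosome 8, 84661331 to 84662852) had 23.9 CPM (20.6 to 27.7) in BA-like and 130 CPM (119 to 142) in EC-like nuclei. Btg2 had 41.0 CPM (36.6 to 45.8) and 316 CPM (298 to 334). Cyr61, the matrix protein gene, was as high in BA-like nuclei, at 195 CPM (185 to 205), as in EC-like nuclei, at 181 CPM (168 to 195), with overlapping intervals. So 7 of the 10 members stood at least 2-fold higher in EC-like than in BA-like nuclei of untreated BAT, where 24.7% of the 5469 genes of at least 50 CPM did, and Jun, Atf3 and Cyr61 did not.

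**Figure D1:**
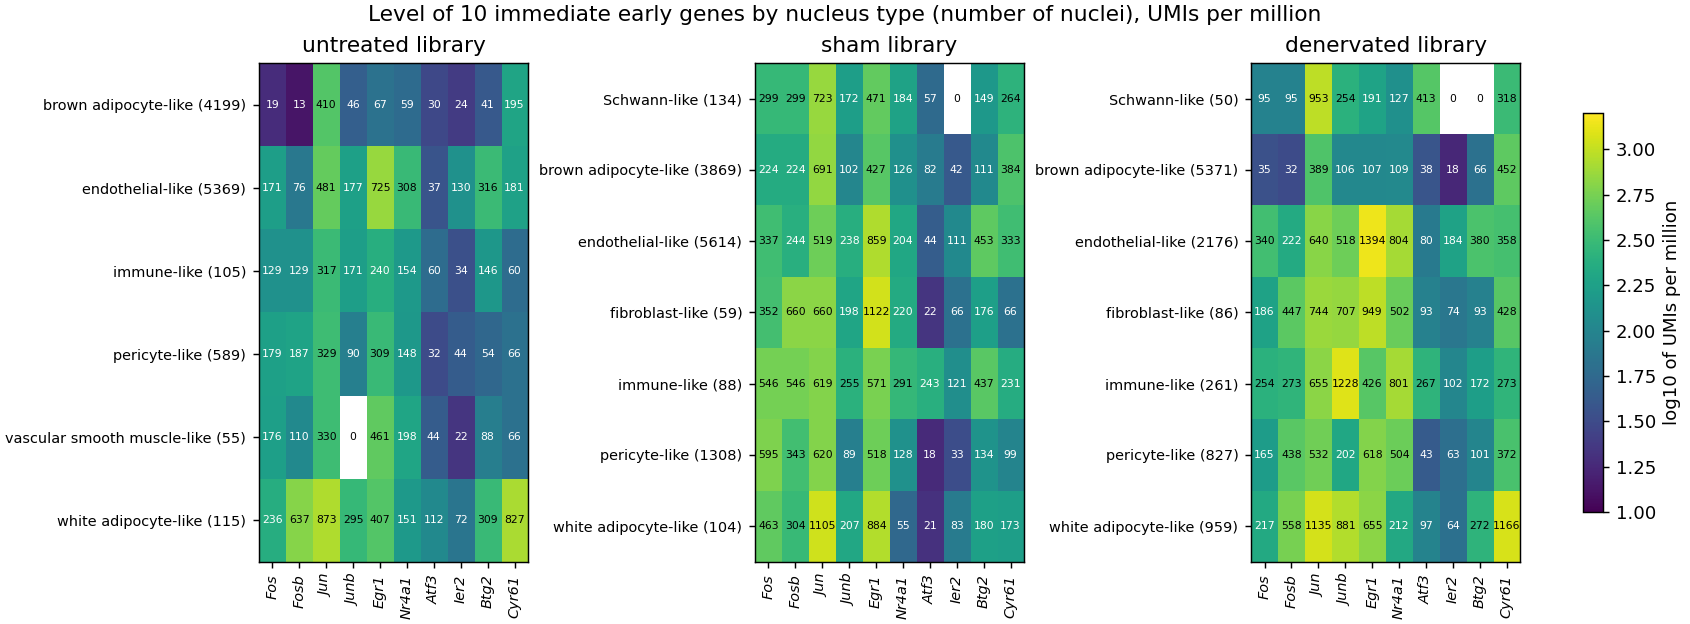
Level of each of the 10 genes (columns) in each nucleus type (rows, with the number of nuclei) of the 3 libraries, as CPM, with colour on a log10 scale and blank cells at 0. In the untreated library, the BA-like row is dark for 8 genes, at 13.4 to 67.3 CPM, while its Jun cell, at 410, and its Cyr61 cell, at 195, are close to those of EC-like nuclei.

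In WA-like nuclei of untreated BAT the members took 3920 CPM (3612 to 4247), in PC-like nuclei 1438 CPM (1335 to 1547), in immune-like nuclei 1439 CPM (1230 to 1674) and in vascular smooth muscle-like nuclei 1494 CPM (1160 to 1894). Fosb was highest in WA-like nuclei, at 637 CPM (516 to 777), followed by PC-like nuclei, at 187 CPM (151 to 229), and lowest in BA-like nuclei. Jun and Cyr61 were also highest in WA-like nuclei, at 873 CPM (731 to 1035) and 827 CPM (689 to 985). For Egr1 the order was EC-like, vascular smooth muscle-like (461 CPM, 286 to 705), WA-like (407 CPM, 312 to 522), PC-like (309 CPM, 262 to 362), immune-like (240 CPM, 159 to 347) and BA-like, in which each pair of neighbours overlapped except the last. BA-like nuclei were lowest of the 6 classes for Fos, Fosb, Egr1 and Nr4a1 with no overlap. The immune-like class also carried 5997 CPM of the brown adipocyte markers. WA-like nuclei had 7229 CPM of these and 1727 CPM of the white adipocyte markers. In the sham and denervated libraries WA-like nuclei had 14523 and 5117 CPM of the brown and 5279 and 1480 CPM of the white markers. The part of these in the class values was not tested. Junb had 0 UMIs in the vascular smooth muscle-like nuclei, with an exact upper bound of 81.1 CPM.

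In the sham library the members took 2412 CPM in BA-like nuclei (2370 to 2454), 3342 CPM in EC-like nuclei (3282 to 3403) and 2577 CPM in PC-like nuclei (2480 to 2677). In the denervated library they took 1353 CPM in BA-like nuclei (1322 to 1384), 4921 CPM in EC-like nuclei (4782 to 5063), 3037 CPM in PC-like nuclei (2868 to 3214) and 5257 CPM in WA-like nuclei (5103 to 5414). Fos, for which PC-like nuclei were highest among the named types of the sham library at 595 CPM (549 to 644), had 224 CPM in BA-like nuclei there (211 to 237), with every neighbouring pair of named types overlapping. Both unnamed sham clusters were higher, with 1049 CPM of Fos in one of 705 nuclei and 959 CPM in one of 431 nuclei led by Myh11 and Acta2. Junb had 1228 CPM (1060 to 1413) in the denervated immune-like nuclei, and 518 CPM (474 to 565) in EC-like and 106 CPM (97.9 to 116) in BA-like nuclei of that library. Cyr61 was highest in WA-like nuclei of the denervated library, at 1166 CPM (1094 to 1242), but had 173 CPM (112 to 255) in the 104 WA-like nuclei of the sham library. The unnamed sham cluster of 705 nuclei, led by genes that include the white adipocyte marker Slc7a10, had 2155 CPM of Cyr61, so the sham value depends on the naming of clusters.

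Which nuclei carry these genes was asked first within each library, where both classes come from the same preparation. Their depth differed, with a median of 1823 UMIs in BA-like and 669 in EC-like nuclei of the untreated library, 1358 and 527 in the sham library and 885 and 360 in the denervated library. Over all 10 members, the median log2 ratio of EC-like to BA-like CPM was 2.42 in the untreated library (2.18 to 2.62, the medians of the exact bounds), with a range from -0.10 for Cyr61 to 3.43 for Egr1. With a minimum of 500 detected genes per nucleus the untreated median was 1.55. In the untreated library 7 members were at least 2-fold higher and none was 2-fold lower, while 24.7% of the 5469 genes compared were higher and 26.2% lower by that measure. Of the members, 9 passed the minimum of 50 CPM in either class, which Atf3 missed. Fos was 8.95-fold higher (log2 3.16, 2.90 to 3.43) and Egr1 10.8-fold (3.29 to 3.57 on the log2 scale). In the denervated library the median was 2.66 (2.41 to 2.89), with 8 members at least 2-fold higher and none lower, against 25.4% and 24.9% of all genes. Egr1 again led, with a log2 ratio of 3.70 (3.56 to 3.85), and Cyr61 was below 0 at -0.34 (-0.50 to -0.17). With types taken from the markers of each nucleus the medians were 1.97 in the denervated and 0.14 in the sham library, and against all adipocyte clusters together they were 1.66 and 0.13. In the sham library the median was 0.64 (0.50 to 0.78), 4 members were at least 2-fold higher and none lower, and the background was 22.9% and 27%. The 4 were Btg2 (2.02), Ier2 (1.42), Junb (1.23) and Egr1 (1.01), while Jun (-0.41), Atf3 (-0.87) and Cyr61 (-0.21) were lower in EC-like nuclei. These signs did not hold against the largest BA-like cluster of the sham library, of 2478 nuclei. Jun, Atf3 and Cyr61 had 166, 6.02 and 61.9 CPM there, and 519, 44.5 and 333 CPM in sham EC-like nuclei. The median over all genes compared was -0.16, -0.13 and -0.07 in the untreated, sham and denervated libraries.

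**Figure D2:**
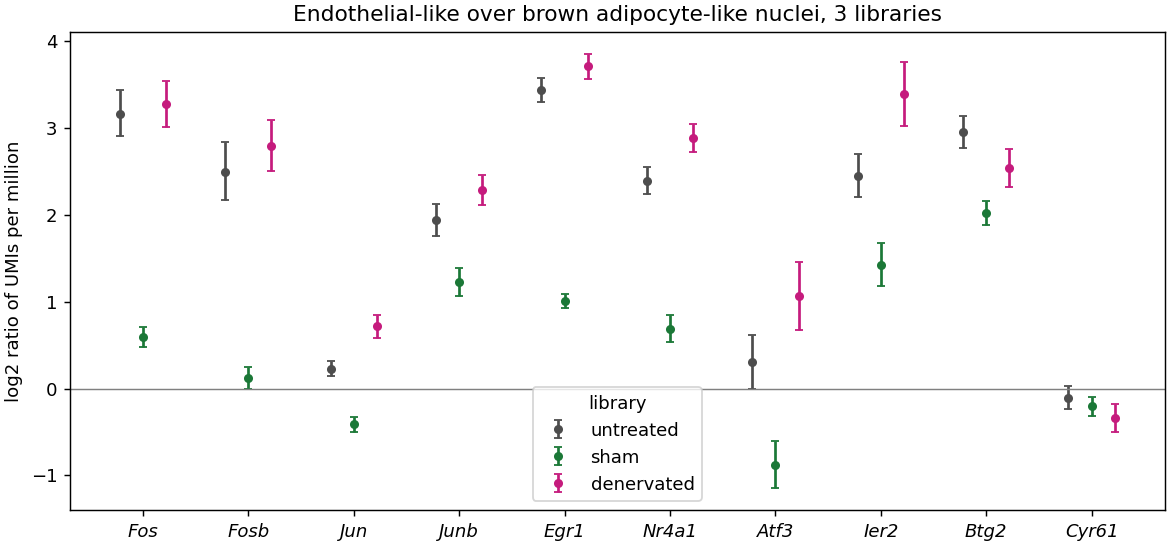
Log2 ratio of EC-like to BA-like CPM for each member (horizontal axis) in the 3 libraries, with exact intervals for counting error. The untreated and denervated intervals overlap for 5 genes, such as Fos at 3.16 and 3.27, and not for Jun, Nr4a1, Atf3, Ier2 (2.44 and 3.39) and Btg2, and the sham points lie below the untreated ones for all 10 genes, with overlapping intervals for Cyr61.

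BA-like nuclei were not uniform in the members. The largest BA-like cluster of the untreated library, with 3455 nuclei, had 540 CPM of the members (522 to 558) and 2039 CPM of 10 heat shock genes. A second BA-like cluster of 724 nuclei, led by the chaperone genes Hspa1a, Dnajb1 and Hspa1b, had 3603 CPM of the members (3481 to 3728) and 15154 CPM of the heat shock genes. It held 17.2% of the BA-like nuclei and 47.5% of their member UMIs. All 10 members were higher there than in the largest cluster, with a median log2 ratio of 2.64 and a range from 1.26 for Ier2 to 4.998 for Atf3. Atf3 and Jun were among the genes that led this cluster, although neither entered the clustering. Its level of Jun was 1580 CPM against 252 CPM in the largest cluster, that of Cyr61 848 against 107 CPM, and that of Egr1 288 against 37.6 CPM. Both clusters carried the brown adipocyte markers at a like level, at 9916 and 9280 CPM, and the endothelial markers at 394 and 381 CPM, and mitochondrial genes took 3.10% of the UMIs of the largest. Since heat shock genes entered the clustering, their rise together with the members is a description of the clusters, and their part in the member levels was not tested.

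BA-like clusters rich in heat shock UMIs were also found in the other libraries. In the sham library the largest BA-like cluster (2478 nuclei) had 500 CPM of the members (477 to 524), a cluster of 708 nuclei led by genes that include Pdk4 and Jun had 6076 CPM (5922 to 6233), and a cluster of 323 nuclei led by Dnajb1 and Bag3 had 11926 CPM (11572 to 12288). Heat shock genes stood at 1353, 13976 and 37084 CPM in the same order. The largest cluster held 64.0% of the BA-like nuclei but 14.4% of their member UMIs, and the other 2 held 18.3% and 8.35% of the nuclei with 46.3% and 33.8% of the member UMIs. Another BA-like cluster, with 360 nuclei and 2429 CPM of the members, carried 4831 CPM of the endothelial markers and 17.6% mitochondrial UMIs. Outside the BA-like class, the unnamed cluster of 705 nuclei had 12880 CPM of the brown and 1411 CPM of the white adipocyte markers. It had 10756 CPM of the members (10538 to 10977) and 27202 CPM of the heat shock genes, and is not in the sham BA-like class values. In the denervated library the largest BA-like cluster (3485 nuclei) had 771 CPM of the members (744 to 799) and 1760 CPM of the heat shock genes, and a cluster of 1344 nuclei led by Hspa1a, Hspa1b and Cyr61 had 3150 CPM (3040 to 3263) and 12360 CPM. All 10 members were higher in the cluster of 1344 nuclei, 9 of them beyond counting error, with a median log2 ratio of 1.75, Atf3 at 2.94 and Cyr61 at 2.68. A further BA-like cluster of 493 nuclei had 2498 CPM of the members, 6028 CPM of the heat shock genes and 1879 CPM of the endothelial markers, against 311 CPM of these markers in the largest. It held 9.18% of the denervated BA-like nuclei and 14.3% of their member UMIs. Both WA-like clusters of that library had 5507 and 4976 CPM of the members and 14050 and 15781 CPM of the heat shock genes, and the untreated WA-like cluster 3920 and 11642 CPM. The sham WA-like cluster had 3475 CPM of the members with 1969 CPM of the heat shock genes, against 10756 and 27202 CPM in the unnamed sham cluster.

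**Figure D3:**
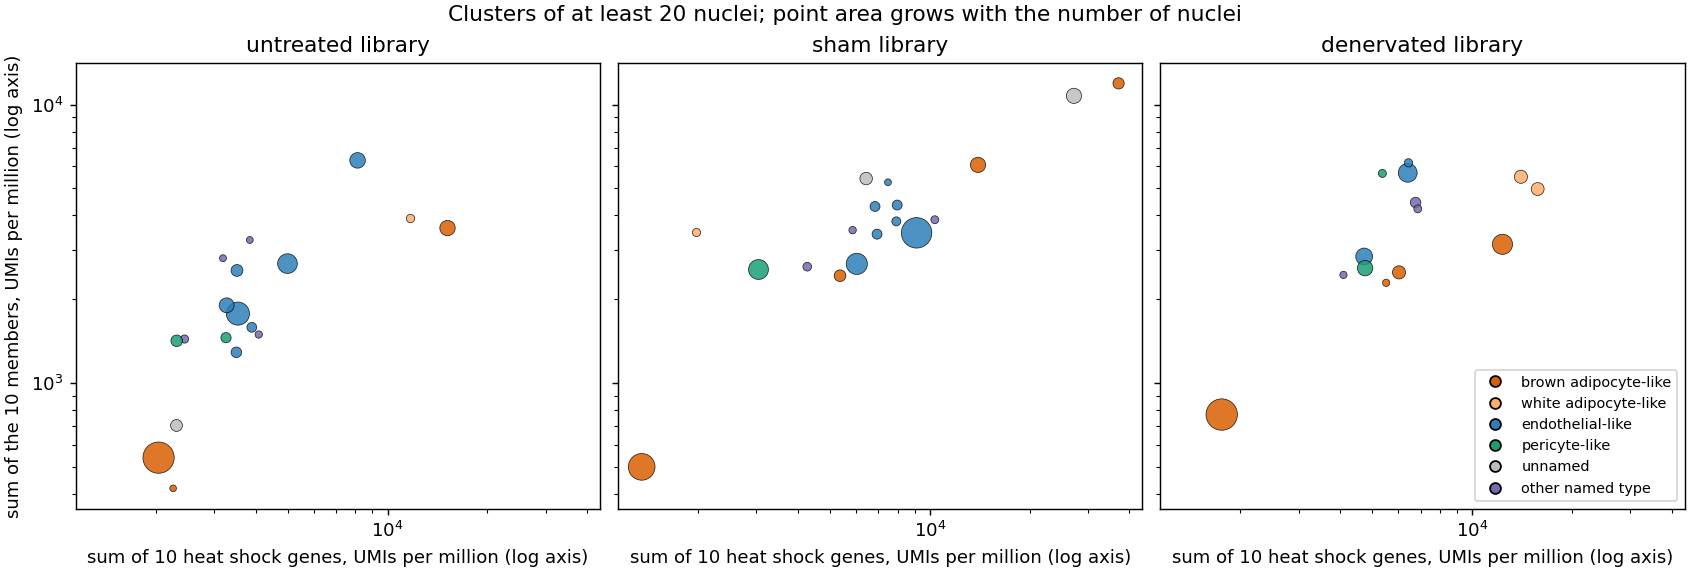
Each point is a cluster of at least 20 nuclei, placed by its summed CPM of 10 heat shock genes (horizontal, log axis) and of the 10 members (vertical, log axis), with area growing with the number of nuclei and colour giving the type. The largest BA-like cluster of each library lies at the lower left, at 540, 500 and 771 CPM of the members, and the other BA-like clusters of at least 300 nuclei to its upper right.

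EC-like clusters had more of the members than the largest BA-like cluster. Of the 7 EC-like clusters of the untreated library, 6 had 1290 to 2686 CPM of the members with 3271 to 4990 CPM of the heat shock genes. The remaining one, with 744 nuclei, had 6306 CPM of the members (6101 to 6516) and 8116 CPM of the heat shock genes, and its leading genes included Fos, Egr1, Btg2 and Nr4a1 beside Apln and Apold1. It held 13.9% of the EC-like nuclei and 36.1% of their member UMIs, with 1782 CPM of Egr1, 1257 CPM of Jun and 543 CPM of Fos. It also carried 3243 CPM of the brown adipocyte markers, against 919 to 1093 CPM in the other 6, and 11.6% mitochondrial UMIs, and the part of these in its member level was not tested. With this cluster left out, the untreated median of EC-like over BA-like was 2.001. Against the largest BA-like cluster alone, the EC-like to BA-like median was 2.84, 2.91 and 3.58 in the untreated, sham and denervated libraries. This setting leaves out the heat shock-rich clusters and also the clusters with endothelial markers, of 360 nuclei in the sham and 493 in the denervated library. Without the 493 nuclei alone, the denervated median was 2.91. Without the 360 nuclei and the sham EC-like cluster of 155 nuclei with markers of both classes, the sham median was 0.62, against 0.64 with them. The part of the heat shock-rich clusters was not tested.

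The sham operation was compared with no treatment within each type, and the denervated library with the same untreated library, so the 2 comparisons share their control. In BA-like nuclei all 10 members were higher in the sham library beyond counting error, by a median log2 ratio of 1.29 (1.07 to 1.49). By this measure 37.5% of the genes compared were higher and 41.1% lower. With immediate early genes in the clustering the median was 0.64, and with types from the markers of each nucleus 1.88. Of the 10, 7 were at least 2-fold higher and none lower, against 7.11% and 6.88% of 4852 genes of at least 50 CPM in either library, a minimum that 9 members passed. Fos went from 19.1 to 224 CPM, a log2 ratio of 3.55 (3.30 to 3.80), and Fosb from 13.4 to 224 CPM, a log2 ratio of 4.06 (3.77 to 4.37). Egr1 went from 67.3 to 427 CPM, with a log2 ratio of 2.67 (2.53 to 2.81). Jun (0.75), Ier2 (0.79) and Cyr61 (0.98) remained under 2-fold. In the largest BA-like cluster of each library the median was -0.014 (-0.36 to 0.44), with 3 members at least 2-fold higher, none lower, and a background of 7.86% and 7.14%. Only 3 members passed 50 CPM there, and Fos and Fosb, at 40.8 and 30.9 CPM in the sham library, did not. The 3 were Fos (1.87, 1.46 to 2.29), Fosb (1.75, 1.29 to 2.22) and Egr1 (1.06, 0.81 to 1.31), while Jun (-0.60, -0.74 to -0.47), Cyr61 (-0.78, -1.01 to -0.57) and Ier2 (-0.50, -0.99 to -0.03) were lower there. The heat shock genes, at 3603 and 6336 CPM in all BA-like nuclei of the untreated and sham libraries, moved with the class value. So did mitochondrial UMIs, at 3.14% and 7.02%, the endothelial markers, at 393 and 660 CPM, and the brown adipocyte markers, at 9837 and 12172 CPM, and the part of none of these was tested.

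In EC-like nuclei sham over untreated had a median of 0.34 (0.22 to 0.58), 1 member at least 2-fold higher and none lower, against 2.05% and 3.23% of 4484 genes. With a minimum of 500 detected genes per nucleus the median was 0.80. The 1 was Fosb, from 75.5 to 244 CPM (log2 1.69, 1.499 to 1.89). Nr4a1 went the other way, from 308 to 204 CPM (-0.60, -0.73 to -0.46). The heat shock genes of EC-like nuclei stood at 8036 CPM in the sham and 4380 CPM in the untreated library and mitochondrial UMIs at 12.2% and 9.14%, and their part was not tested. In PC-like nuclei the median was 0.66 (0.24 to 1.09), and 2 members, Fos (1.73, 1.41 to 2.06) and Btg2 (1.32, 0.72 to 1.97), were at least 2-fold higher and none lower, against 3.31% and 3.51%. The pericyte markers of this class stood at 17078 CPM in the sham and 13843 CPM in the untreated library, the brown adipocyte markers at 598 and 1155 CPM and mitochondrial UMIs at 5.13% and 3.40%, and their part was not tested. Fosb was thus higher in the sham library in both BA-like and EC-like nuclei by more than 2-fold, and Fos by 1.97-fold in EC-like nuclei.

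**Figure D4:**
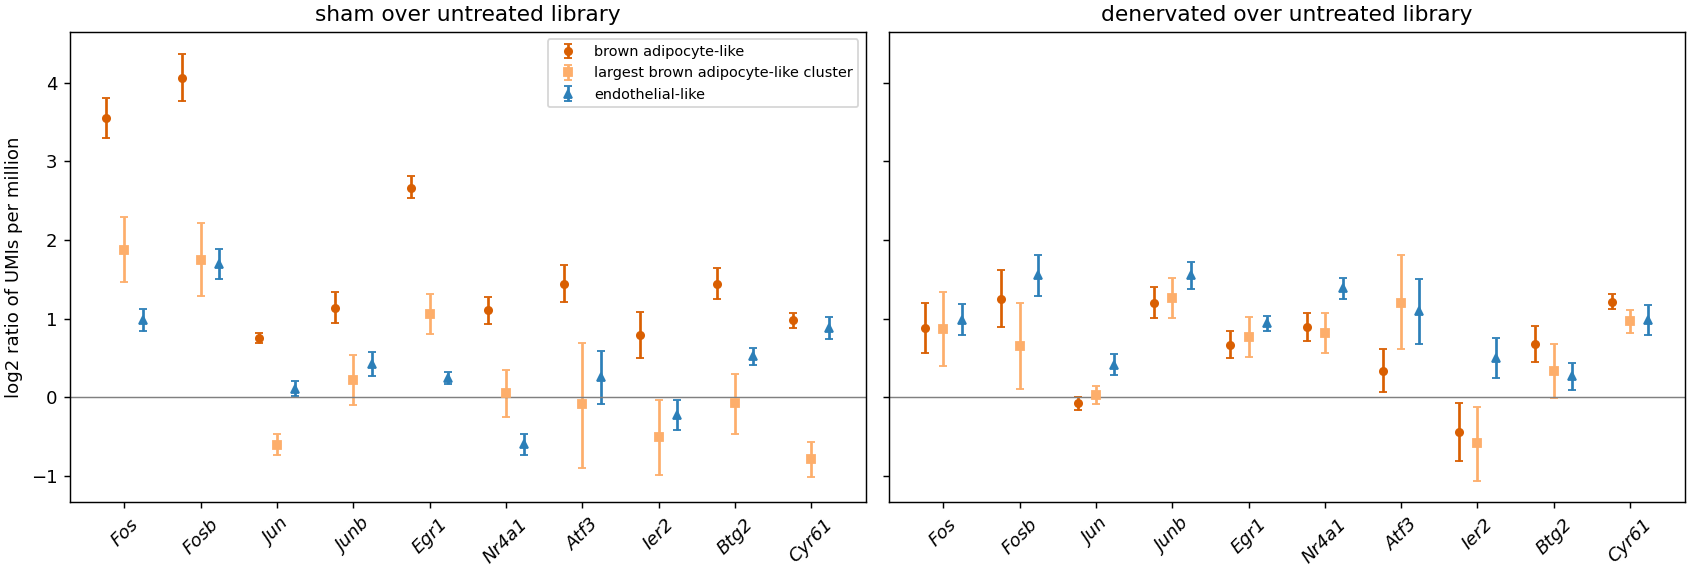
Log2 ratio of CPM of each member in the sham library (left) and the denervated library (right) over the untreated library, for all BA-like nuclei, the largest BA-like cluster of each library and EC-like nuclei, with exact intervals for counting error. On the left, Fos and Fosb of all BA-like nuclei stand at 3.55 and 4.06 and those of the largest cluster at 1.87 and 1.75, while on the right no value exceeds 1.55.

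In denervated BAT, EC-like nuclei had all 10 members higher than in untreated BAT beyond counting error, against 22.7% of 4555 genes that were higher and 15.1% that were lower by this measure. The median log2 ratio was 0.99 (0.79 to 1.18), and 4 members were at least 2-fold higher and none lower, against 2.17% and 0.483% of 4555 genes. Fosb (1.55, 1.29 to 1.81) and Junb (1.55, 1.38 to 1.72) rose from 75.5 to 222 CPM and from 177 to 518 CPM, Nr4a1 from 308 to 804 CPM (1.39, 1.25 to 1.52) and Atf3 from 37.2 to 79.8 CPM (1.10, 0.68 to 1.51). Egr1, at 1394 CPM (1321 to 1471), was 1.92-fold higher, and Btg2 was closest to its untreated level, at 380 CPM (log2 0.27, 0.09 to 0.44). The denervated class was not uniform. A cluster of 1164 nuclei had 5691 CPM of the members and 70.1% of the member UMIs of the class. Another, with 901 nuclei or 41.4% of the class, had 2848 CPM and 16.7%. In the cluster of 901 nuclei Fos (136 CPM), Jun (269), Egr1 (577), Ier2 (64.5) and Btg2 (283) lay below the level of the untreated class, and the remaining members above it. Without the untreated EC-like cluster of 744 nuclei that held 36.1% of the member UMIs, the EC-like median was 1.46, and with doublets kept it was 0.63. EC-like nuclei of the denervated library were also the shallowest of the main classes, with a median of 360 UMIs, and their heat shock genes stood at 5923 CPM against 4380 CPM in the untreated library. Mitochondrial UMIs stood at 5.40% against 9.14% and the endothelial markers at 14167 against 15960 CPM, and the part of these was not tested.

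In BA-like nuclei the median log2 ratio of the denervated to the untreated library was 0.78 (0.53 to 0.99), with 3 members at least 2-fold higher and none lower, against 1.14% and 0.396% of 4545 genes. Of the members, 6 passed 50 CPM, among them Cyr61 and Junb but not Fosb, so 2 of these 6 were at least 2-fold higher. Without the cluster of 493 nuclei with endothelial markers the median was 0.55, and with a minimum of 500 detected genes per nucleus the median was 0.43. It was 1.27 with clusters at resolution 0.5 and 1.20 over all adipocyte clusters. The 3 were Cyr61, from 195 to 452 CPM (log2 1.22, 1.12 to 1.31), Junb, from 46.2 to 106 CPM (1.20, 1.01 to 1.40), and Fosb, from 13.4 to 32.0 CPM (1.25, 0.89 to 1.62). The Jun interval held 0 (-0.07, -0.15 to 0.01), and Ier2 was lower (-0.44, -0.81 to -0.08). BA-like nuclei of the untreated and denervated libraries had a median of 1823 and 885 UMIs. Their heat shock genes stood at 3603 and 4060 CPM and mitochondrial UMIs at 3.14% and 1.91%, and the part of these was not tested. In the largest BA-like cluster alone the median was 0.79 (0.45 to 1.09), with 2 members, Junb (1.27) and Atf3 (1.21), at least 2-fold higher and none lower, against 0.854% and 0.416%. Of these 2, Atf3, at 14.7 and 6.39 CPM, was under the 50 CPM that the background and 5 of the members passed. In PC-like nuclei the median was 0.95 (0.51 to 1.56), and Cyr61 (2.50, 1.95 to 3.09), Nr4a1 (1.77), Fosb (1.22) and Junb (1.17) were at least 2-fold higher and none lower, against 7.17% and 5.42%. The PC-like class itself differed between these libraries, with 13843 CPM of the pericyte markers in the untreated and 7864 CPM in the denervated library, 1155 and 2212 CPM of the brown adipocyte markers and 2804 and 4852 CPM of the heat shock genes, and their part in these values was not tested. Cyr61 stood 2.33-fold higher in BA-like, 1.98-fold in EC-like and 5.65-fold in PC-like nuclei of the denervated library.

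The denervated and sham libraries were also set against each other, although the day after the sham operation is not known. In BA-like nuclei the median was -0.96 (-1.15 to -0.80), and 5 members, Fosb (-2.81), Fos (-2.67), Egr1 (-1.996), Ier2 (-1.23) and Atf3 (-1.10), were at least 2-fold lower in the denervated library and none higher, against 6.98% lower and 7.31% higher among 4830 genes. Ier2, at 17.6 and 41.5 CPM, was under the 50 CPM of these genes, so 4 of the 9 members that passed were 2-fold lower. Heat shock genes of BA-like nuclei stood at 4060 CPM in the denervated and 6336 CPM in the sham library, and mitochondrial UMIs at 1.91% and 7.02%. In EC-like nuclei the median was 0.50 (0.30 to 0.61), and Nr4a1 (1.98, 1.83 to 2.13) and Junb (1.12, 0.96 to 1.29) were at least 2-fold higher and none lower, against 8.73% and 3.51%. The heat shock genes of EC-like nuclei stood at 5923 and 8036 CPM and mitochondrial UMIs at 5.40% and 12.2%, and the part of these in either class was not tested. In the largest BA-like cluster the direction of the median turned, to 0.52 (0.24 to 0.80). There Cyr61 (1.75), Atf3 (1.29) and Junb (1.04) were at least 2-fold higher and Fosb (-1.09, -1.58 to -0.62) and Fos (-1.004, -1.41 to -0.60) lower, against 8.03% and 7.54% of all genes. Of the 5 members that passed 50 CPM there, 2, Cyr61 and Junb, were 2-fold higher and none lower. Jun stood at 0.63 and Egr1 at -0.29 (-0.54 to -0.04). The intervals of Fos (0.01, -0.17 to 0.19) and Cyr61 (0.11, -0.07 to 0.28) held 0 in EC-like nuclei.

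Class sums do not tell whether many nuclei carry few UMIs or few carry many, so detection was counted after each nucleus had been thinned to 400 UMIs. In the untreated library, Egr1 was detected in 16.7% of EC-like nuclei (15.6 to 17.9) and 2.81% of BA-like nuclei (2.32 to 3.36), Fos in 5.28% and 0.823%, and Jun in 13.5% (12.5 to 14.6) and 14.6% (13.5 to 15.7). At least 3 of the 10 members were detected in 9.31% of EC-like nuclei (8.44 to 10.2) and 1.69% of BA-like nuclei (1.32 to 2.14), or in 13.3% and 7.79% before thinning. In the sham library these shares were 12.97% (11.9 to 14.0) and 10.3% (9.38 to 11.4), and in the denervated library 21.2% (18.6 to 24.0) and 1.92% (1.56 to 2.33). The denervated EC-like share rests on the 914 of 2176 nuclei that had 400 UMIs. The denervated BA-like share was thus close to the untreated one, although 35.1% of the denervated and 26.5% of the untreated BA-like nuclei had at least 1 member.

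Whether the members occur in the same nuclei was described by the number of nuclei with both genes of a pair, divided by the number expected if they were independent. Of the 45 pairs, 36 had at least 5 expected nuclei among the 4145 untreated EC-like nuclei, with a median ratio of 3.33 (2.55 to 4.29) and a range of 2.34 to 5.55. All 36 reached 1.5, which 4.86% of all gene pairs did, the median over all pairs being 0.991. Here all pairs are those with at least 5 expected nuclei among genes detected in at least 2% of the nuclei. The minimum of 2% was not applied to the members. Egr1 was detected in 39.0% of the nuclei with Jun and in 13.2% of those without, the pair with the lowest ratio. Nr4a1 was detected in 45.6% of the nuclei with Fosb and in 7.37% of those without, the highest. In untreated BA-like nuclei only 11 pairs could be used, each with Jun or Cyr61, with a median of 2.09 (1.46 to 3.01), and 10 reached 1.5, against 4.68% of all pairs. Within the largest untreated EC-like cluster alone the median was 2.46. In the sham library it was 3.24 over 39 pairs in BA-like nuclei (2.36 to 4.33) and 1.74 over 41 pairs in EC-like nuclei (1.34 to 2.34). All 39 and 35 of the 41 reached 1.5, against 5.31% and 5.53% of all pairs. The sham BA-like class joins clusters of 500 to 11926 CPM of the members, and the part of this mix in its ratio was not tested. In the denervated library the median was 1.93 over 37 pairs in EC-like nuclei (1.36 to 2.67) and 1.71 over 21 pairs in BA-like nuclei (1.09 to 2.47), and 31 and 14 pairs reached 1.5, against 5.55% and 4.27%. In PC-like nuclei of the sham library all 18 usable pairs reached it, with a median of 3.08, against 5.52% of all pairs. Since the usable pairs differ between classes, their medians were not compared.

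**Figure D5:**
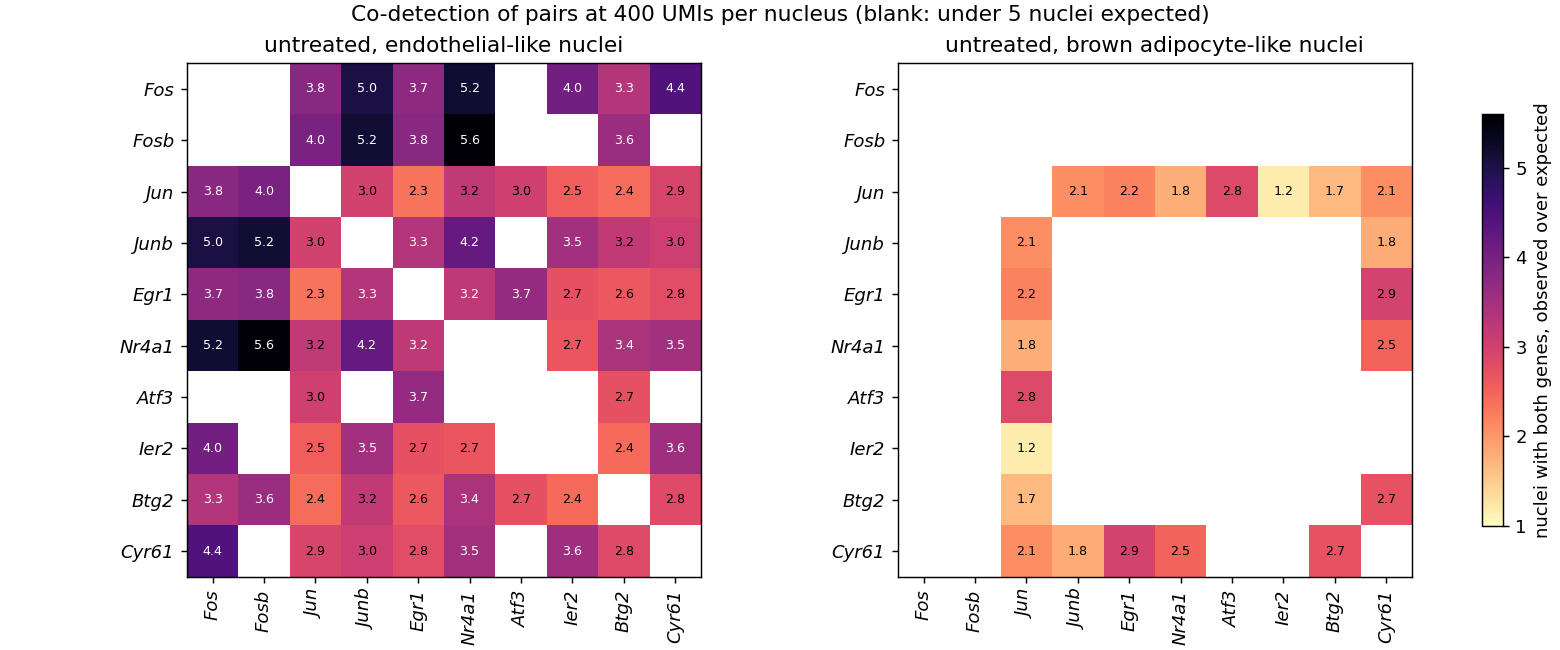
Number of nuclei with both genes of a pair over the number expected from the share of each gene, at 400 UMIs per nucleus, in untreated EC-like (left) and BA-like (right) nuclei, with blank cells for pairs of under 5 expected nuclei. All filled cells on the left lie between 2.34 and 5.55, and the filled cells on the right, all with Jun or Cyr61, between 1.17 and 2.95.

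Heat shock UMIs were counted in the same nuclei. In untreated EC-like nuclei a UMI of the 10 heat shock genes was present in 90.4% of the 386 nuclei with at least 3 members (87.0 to 93.2) and in 64.2% of the 2555 nuclei with none (62.3 to 66.0), at the same 400 UMIs. In BA-like nuclei the shares were 98.6% of 70 nuclei (92.3 to 99.96) and 58.9% of 3036 nuclei (57.1 to 60.6). The sham library gave 95.01% and 78.3% in EC-like and 98.4% and 41.5% in BA-like nuclei, and the denervated library 89.2% and 64.7%, and 94.9% and 56.4%. In the untreated library, nuclei with at least 3 members had fewer UMIs before thinning than those with none, with a median of 1106 against 1910 in untreated BA-like and 656.5 against 787 in untreated EC-like nuclei, and their median mitochondrial share was 10.4% against 8.08% in the latter. The part of depth in these shares was not tested.

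The genes whose detection was most like that of the members were taken by the log2 ratio of their share in nuclei with at least 3 members to that in nuclei with none, among 3942 genes in untreated EC-like nuclei. Apold1, an immediate early gene of endothelium, was first, in 19.9% and 1.80% of the nuclei (3.47). Sik1, a kinase gene induced by cAMP, followed at 3.44, and Zfp36, which encodes an mRNA-destabilising protein, at 3.29, in 37.0% and 3.80% of the nuclei. The chaperone genes Hspa1a (2.99) and Hspa1b (2.71), Plxdc2 (2.84), the NF-κB regulator Nfkbiz (2.60), the AP-1 subunits Jund (2.23) and Fosl2 (1.89) and the Notch target Hes1 (1.87) completed the first 10. In untreated BA-like nuclei, with 70 nuclei in the high group, Dnajb1 was first, in 42.9% and 4.84% of the nuclei (3.15), followed by Hspa1a in 72.9% and 8.50% (3.10) and Hspa1b in 75.7% and 10.4% (2.86). Plxdc2 (2.72), the chaperone gene Dnaja4 (2.63), Dusp1 (2.52), Htra3 (2.32), AW554918 (2.25), Hsp90aa1 (2.20) and Ubb (2.19) were the rest.

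Other immediate early genes were followed by a list of 34, of which 31 were in all 3 tables. Of the 16 that passed 50 CPM in EC-like or BA-like nuclei of untreated BAT, 7 were at least 2-fold higher in EC-like nuclei and 1 lower, with a median of 0.45, against 24.7% and 26.2% of all genes compared. Klf2 (3.98) and Klf4 (5.68), the flow-responsive Krüppel-like factors of endothelium, Klf6 (2.08), the MAPK phosphatase gene Dusp1 (1.72), Zfp36 (1.904), Sik1 (1.81) and Ier5 (1.17) were higher, and Tiparp, a target of the aryl hydrocarbon receptor, was lower (-2.25). Below 50 CPM but with at least 20 UMIs, Egr3 (4.23), Nr4a3 (4.10), Egr2 (2.70), Socs3 (2.98), Dusp2 (3.40), Arc (1.35) and Dusp5 (1.10) were higher, and Myc (-2.18) and Gadd45g (-1.09) lower. In the denervated library 11 of 18 were at least 2-fold higher in EC-like nuclei and 1 lower, with a median of 1.39, against 25.4% and 24.9% of all genes, and in the sham library 6 and 3 of 16, with a median of 0.85, against 22.9% and 27%. Against the untreated library, 5 of 17 were at least 2-fold higher in denervated EC-like nuclei and none lower, with a median of 0.80, against 2.17% and 0.483% of all genes, namely Sik1 (1.64), Ier3 (1.59), Nr4a3 (1.40), Fosl2 (1.38) and Zfp36 (1.11). In denervated BA-like nuclei none of 13 was 2-fold higher and 1, Dusp6, was lower (-1.03), against 1.14% and 0.396% of all genes.

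In sham BA-like nuclei the listed genes stood on both sides of their untreated level. Of 14 that passed the minimum, Zfp36 (1.55) and Gadd45g (1.46) were at least 2-fold higher than in untreated BA-like nuclei, and Rhob (-1.44) and the ERK phosphatase gene Dusp6 (-2.81) lower, with a median of -0.49, against 7.11% higher and 6.88% lower among all genes. Of genes below 50 CPM, Arc stood at 3.85, Egr2 at 2.58 and Nr4a3 at 2.42, beside Ier3 at -1.38 and Maff at -1.21. In the largest BA-like cluster 7 of 12 listed genes were at least 2-fold lower and none higher in the sham library, with a median of -1.23, against 7.14% lower and 7.86% higher among all genes, and Jund stood at -1.53. Arc, a gene best known from neurons, had 227 UMIs in sham and 23 UMIs in untreated BA-like nuclei.

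The 14 genes of upstream factors, which act through the serum response factor, CREB, MAP kinase and YAP pathways, were compared in the same way. Of the 12 that passed the minimum in untreated BAT, 4 were at least 2-fold higher in EC-like nuclei, the ternary complex factors Elk3 (5.48) and Elk4 (1.76), the ERK1 gene Mapk3 (2.79) and the YAP paralogue gene Wwtr1 (1.89). Yap1 itself was lower, at -1.10. The 4 of 12 are near the 24.7% of all genes that were 2-fold higher, and the 1 of 12 is below the 26.2% that were lower. With 12 genes neither count is read as a result about the list. In sham over untreated BA-like nuclei, Tead1, which encodes the DNA-binding partner of YAP, was higher (1.41) and Yap1 lower (-1.75), and none of the other 8 that passed differed by 2-fold, so that 1 of 10 in each direction stood near the 7.11% and 6.88% of all genes. Between the denervated and the untreated library none of 10 in BA-like and none of 11 in EC-like nuclei differed by 2-fold, with medians of 0.00 and 0.05, against 1.14% higher and 0.396% lower and 2.17% and 0.483% of all genes.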

How the data were processed

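Nuclei of 3 BAT libraries (untreated, sham, denervated; 1 each) were profiled with the BD Rhapsody whole transcriptome assay. The deposited tables hold UMI counts per gene and barcode, corrected by the authors' pipeline for sequencing and PCR errors. Per the file headers, the untreated and denervated tables were made with the BD WTA Rhapsody pipeline on GRCm38 with GENCODE annotation, while nothing is stated in the sham table. The submitters' processing notes name GRCh38 and Seurat 4.0.6, and the mouse symbols of the tables fit the mouse build. The removal of debris and ambient RNA described in the study was not repeated.

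The 10 members and all gene lists were chosen with earlier results of these data known. Barcodes were kept from 200 detected genes up and below a mitochondrial share of 50%. A nucleus counted as a doublet, and was removed, when 2 marker lists that exclude each other both reached 3 UMIs and the lower sum came to 25% of the higher (923, 1715 and 731 in the untreated, sham and denervated libraries). Each library was clustered on 2000 variable genes, 30 components and 20 neighbours by the Louvain method at resolution 1.5, a value chosen with the clusters in view. A cluster was named when at least 3 markers, each with at least 3 UMIs, stood 2-fold above the lower quartile of clusters and its leading genes did not belong to another list. Classes of at least 50 nuclei were described. UMIs were summed per class and divided by the class total. Poisson, Clopper-Pearson and conditional binomial intervals at 95% cover counting error only, and no p-value was computed. Ratios were computed on all genes of at least 50 CPM in either group. Detection was counted after thinning each nucleus to 400 UMIs, leaving out shallower nuclei. A median bound is the median of the members' bounds.

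Named genes were the 10 members, other listed immediate early genes with an absolute log2 ratio of at least 1 and at least 20 UMIs in either group, and the 10 genes most like the members in untreated EC-like and in BA-like nuclei, from genes in at least 2% of nuclei. Egr4, Csrnp1, Npas4 and the markers Cpt1b, Hoxc8, Hoxc9, Hoxc10, Myh1 and Myh4 were not used here, as they were not in all 3 tables read. On simulated Poisson counts, the ratios of 200 changed genes among 5469 in untreated EC-like over BA-like nuclei all had the right sign. Of the intervals, 94.8% held the true value. These intervals assume Poisson counts, so the simulation checks the code and not the spread of the real counts over nuclei. Alternatives covered the gene minimum, doublets, clustering, naming, ambient RNA, thinning, mitochondrial UMIs, scaling and the averaging of nuclei. The scripts ran on Python 3.11.15 with matplotlib 3.10.9 for plots, scipy 1.17.1 for intervals, python-igraph 0.11.9 and scikit-learn 1.9.0 for clustering, and pandas 2.3.3 and numpy 2.4.6 for tables.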

Additional observations from a re-analysis of the deposited data

Results flagged for a closer look

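Jun, Egr1, Atf3, Nr4a1 and Ier2 stood on opposite sides of 0 in the EC-like to BA-like or in the library comparisons, with intervals that exclude 0. With 1 library per condition these differences were not tested.

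Jun had a log2 ratio of EC-like to BA-like nuclei of 0.23 in the untreated and 0.72 in the denervated library and of -0.41 in the sham library. Atf3 had 1.07 in the denervated and -0.87 in the sham library. Against the largest sham BA-like cluster, the sham ratios of Jun and Atf3 lay above 0. That cluster had 166 CPM of Jun and 6.02 CPM of Atf3, and sham EC-like nuclei 519 and 44.5 CPM. Between the sham and untreated libraries, Nr4a1 stood at 1.11 in BA-like and at -0.60 in EC-like nuclei, and Ier2 at 0.79 and -0.23. Between the denervated and untreated libraries, Ier2 stood at 0.50 in EC-like and at -0.44 in BA-like nuclei. Between the denervated and sham libraries, each of the 5 was lower in BA-like and higher in EC-like nuclei of the denervated library. Egr1 stood at -2.0 and 0.70 in this order, Ier2 at -1.23 and 0.73, Atf3 at -1.10 and 0.84, Jun at -0.83 and 0.30 and Nr4a1 at -0.21 and 1.98. In the largest BA-like cluster denervated over sham was above 0 for Jun (0.63), Nr4a1 (0.77) and Atf3 (1.29), below 0 for Egr1 (-0.29), and its interval held 0 for Ier2 (-0.08, -0.65 to 0.49). In the same cluster, sham over untreated was 0.05 for Nr4a1 (-0.25 to 0.35) and -0.50 for Ier2 (-0.99 to -0.03).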

How the results depend on the processing

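Values are median log2 ratios over the 10 members, and the cause of each change was not tested. EC-like over BA-like (2.42 untreated, 0.64 sham, 2.66 denervated) stayed above 0 in every setting run. With a minimum of 500 genes it was 1.55 untreated and 2.24 denervated; with doublets kept 0.90 sham and 2.41 denervated; with types from each nucleus's own markers 2.12, 0.14 and 1.97; with ambient RNA subtracted 2.80 untreated and 3.32 denervated; thinned to 400 UMIs 2.13 untreated and 0.43 sham; and with immediate early genes in the clustering 1.09 sham. On the mean log2 of counts per 10000 plus 1, a compressed scale, it was 0.19, 0.026 and 0.30. The next 4 settings were chosen after seeing the data. At resolution 0.5 it was 2.78 untreated and 1.09 sham, and against the largest BA-like cluster 2.84, 2.91 and 3.58. Against all adipocyte clusters it was 2.09, 0.13 and 1.66, and without clusters with markers of both classes 2.001, 0.62 and 2.91. Denervated over untreated in BA-like nuclei (0.78) was 0.43 with 500 genes, 0.033 as mean log2, 1.27 at resolution 0.5 and 1.20 over all adipocyte clusters. In EC-like nuclei (0.99) it was 0.63 with doublets kept, 0.14 as mean log2 and 1.46 without clusters of both markers. Sham over untreated in BA-like nuclei (1.29) was 0.91 with doublets kept, 0.64 with immediate early genes in the clustering, 1.88 with types from each nucleus's markers, 0.14 as mean log2 and 1.83 over all adipocyte clusters, and reversed to -0.014 in the largest BA-like cluster, where Atf3 (-0.086) and Btg2 (-0.078), both with intervals that hold 0, also reversed and Jun (0.75 to -0.60), Cyr61 (0.98 to -0.78) and Ier2 (0.79 to -0.50), all under 2-fold, changed sign with intervals below 0. In EC-like nuclei (0.34) it was 0.80 with 500 genes, 0.21 with ambient RNA subtracted, 0.17 as mean log2 and 0.78 without clusters of both markers. Co-detection in untreated EC-like nuclei (3.33) was 2.47 at 800 UMIs and 2.46 in the largest EC-like cluster, also added after seeing the data. Of the other values of single members, 425 moved by less than their counting interval and 413, those 3 among them, by more. Changes of sign in values under 2-fold were not counted apart. Against the largest BA-like cluster, EC-like over BA-like also turned above 0 for Cyr61 in each library and for Jun and Atf3 in the sham library. Cyr61 had 107, 61.9 and 208 CPM in that cluster of the untreated, sham and denervated libraries, and 181, 333 and 358 CPM in EC-like nuclei. No paired analysis was possible because each condition has 1 library. Depth limits the small classes, where a level can rest on a few UMIs.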

Other observations

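Atf3, known to be induced in injured peripheral nerve, was chosen here after its values were seen. It stood at 413 CPM (220 to 706) in the 50 Schwann-like nuclei of the denervated library, from 13 UMIs, and at 57.4 CPM (18.6 to 134) in the 134 Schwann-like nuclei of the sham library, from 5 UMIs. In the untreated library, without an operation, it stood at 230 CPM in a Schwann-like cluster of 29 nuclei, under the minimum of 50. Ier2 had 0 UMIs in the denervated and sham Schwann-like nuclei, with exact upper bounds of 117 and 42.4 CPM. Btg2 had 0 UMIs in the denervated Schwann-like nuclei, with the same bound of 117 CPM.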
